A study of Homo sapiens with 9 samples.

Results

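The transcripts of 10 genes of coenzyme Q synthesis and handling were followed in HEK293 Freestyle cells, a human embryonic kidney line that grows in suspension. The genes were COQ2, COQ3, COQ4, COQ5, COQ6, COQ7, COQ9, COQ10B, PDSS1 and PDSS2, taken by symbol from 57766 genes in the deposited table. COQ3 was selected on its measured values, as its transcript is much lower in the depleted libraries, so these values are given as a description with no test. The remaining 9 are genes of the pathway, and they too were chosen with earlier results of these data known. Cells were held at 1000000 cells/mL in Freestyle medium, washed in PBS, brought to 4000000 cells/mL and cultured for 36 h. The medium was untreated (full), depleted of Zn(II) (depleted), or depleted with Zn(II) added back (repleted). All groups were plated in wells rinsed with 500 µM EDTA and then with PBS. Each group held 3 libraries of polyadenylated RNA, described in the labels as biological triplicates. The comparison of depleted with full medium asks what zinc starvation does to these transcripts, and the comparison with repleted medium sets Zn(II) apart from other components that depletion may take out.

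Coenzyme Q, or ubiquinone, is a lipid of the inner mitochondrial membrane that carries electrons from complexes I and II and from several dehydrogenases to complex III. Its long isoprenoid tail is built by PDSS1 and PDSS2 from products of the mevalonate pathway, and COQ2 joins the tail to a hydroxybenzoate ring. The ring is then hydroxylated and methylated by enzymes that assemble on the matrix side of the membrane. COQ6 and COQ7 are hydroxylases, COQ3 is the O-methyltransferase and COQ5 the C-methyltransferase. COQ4 and COQ9 hold the assembly together or present its lipid substrates, and COQ10B binds the finished product.

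RefSeq windows upstream of the gene start, on GRCh38.p14, were found for 8 of the 10 genes, all but COQ3 and COQ4, with the most upstream start taken where a gene has several. Those of COQ5, which had the largest tested fall, and of COQ6 and COQ10B, which rose, are shown 5′ to 3′ as far as the first annotated exon. Capitals mark matches to motifs on either strand. The stretch of COQ5 is chr12:120529183-120529408 on the minus strand, that of COQ6 is chr14:73949668-73949917 on the plus strand and that of COQ10B is chr2:197453302-197453422 on the plus strand.
COQ5: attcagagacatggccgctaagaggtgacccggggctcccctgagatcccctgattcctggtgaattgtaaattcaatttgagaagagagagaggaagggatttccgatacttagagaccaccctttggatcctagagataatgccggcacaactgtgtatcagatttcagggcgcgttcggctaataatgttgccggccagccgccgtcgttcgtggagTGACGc
COQ6: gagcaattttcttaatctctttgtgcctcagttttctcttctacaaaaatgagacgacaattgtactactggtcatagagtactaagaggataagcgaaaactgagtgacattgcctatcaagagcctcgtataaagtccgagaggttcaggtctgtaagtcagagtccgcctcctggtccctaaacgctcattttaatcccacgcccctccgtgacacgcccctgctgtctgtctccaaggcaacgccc
COQ10B: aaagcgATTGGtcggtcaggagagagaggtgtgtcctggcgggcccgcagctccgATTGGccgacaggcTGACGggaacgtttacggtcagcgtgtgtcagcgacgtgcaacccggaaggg
In the stretch of COQ5 the capitals are a TGACG, the core of the element bound by CREB and ATF factors, which begins 30 bases before the start. The COQ10B stretch holds a TGACG and ATTGG, the reverse of CCAAT. The COQ6 window matched none of the motifs. Over the 250 bases before the start, TGACG was found in 4 of the 8 genes (PDSS2, COQ5, COQ7 and COQ10B), against 21.2% of 35116 windows of all genes. Each member gives 1 window here, while a gene with several starts gives several of the 35116, so these shares are not strictly alike. The metal response element core, written as TGCACNC and TGCGCNC, matched in PDSS2 as TGCACNC, which 9.87% of all windows hold, and in 0 of the 8 as TGCGCNC (16.8% of all windows). CCAAT was found in 3 of the 8 genes (32% of all windows), GGGCGG in 5 (42.6%), GCATGC in 1 (6.21%) and CACGTG in 0 (6.34%). COQ5, which fell, and COQ7 and COQ10B, which rose, thus all hold TGACG. None of the matches overlaps another motif in the printed stretches, and a match describes letters, not a site in use.

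Expression was deposited as log2 of RPKM plus 1, where RPKM are reads scaled by the length of the gene and the total of the library. Levels below are RPKM as means ± SD with n = 3 per group, which allow genes to be compared per length, and differences are on the log2(RPKM + 1) scale with their standard error. Tests are limma's over the 15774 genes that reached 1 RPKM in 3 or more libraries, with Benjamini-Hochberg adjustment and a threshold of 0.05. All 10 genes passed this filter. The spacing of low values in short genes gave an estimated depth of 17100000 to 23200000 reads per library. Of 6 transcripts known from HEK293 cells (VIM, KRT8, KRT18, PAX2, NEFM and NEFL), all had a mean of at least 1 RPKM over the 9 libraries. In depleted against full medium 1 of the 6 rose and 4 fell. This was 83.3% called, beside 60.9% over all genes tested, where 29.8% rose and 31.2% fell. PAX2 fell from 3.29 ± 0.315 to 0.6 ± 0.205 RPKM, below 1 RPKM in depleted medium, and NEFL from 31.8 ± 1.71 to 6.53 ± 0.376. Of 9 matched markers of other cell types, 3 had a mean of at least 1 RPKM over the 9 libraries, with INS listed at 0. The 9 markers summed to between 19.4 and 24.3 RPKM in full, 13.2 and 16.2 in depleted and 19 and 22.4 in repleted libraries. COL1A1 among them fell (log2 -1.05, SE 0.13, and limma adjusted p = 0.000105 in depleted against full medium) and HBA1 rose (log2 1.12, SE 0.21, adjusted p = 0.00136), and their part in the results below was not tested.

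COQ3, the O-methyltransferase of the ring, was chosen for its low level in depleted medium, which is described first. COQ3 (ENSG00000132423) stood at 26.4, 27.9 and 22.6 RPKM in the full libraries, at 1.72, 1.36 and 1.39 in the depleted libraries and at 28.7, 29.2 and 24.3 in the repleted libraries. Every depleted library was far below the other 6, and the full and repleted libraries overlapped. In such bulk samples fewer cells with the transcript and less transcript per cell cannot be told apart. The mean was 25.6 ± 2.72 in full, 1.49 ± 0.2 in depleted and 27.4 ± 2.71 in repleted medium. This was 17.2-fold lower in depleted than in full medium (log2 -3.42, SE 0.10) and 18.4-fold lower than in repleted medium (log2 -3.51, SE 0.10). Only 4 of 15774 genes tested had a lower log2 difference from full medium than COQ3. By the depth estimate, its depleted values rest on 31 to 44 reads per library, against 508 to 717 in full medium. Its level was at the percentile 72.9 of the genes tested in full medium and at 14.6 in depleted medium.

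COQ5 (ENSG00000110871), the other methyltransferase of the ring, fell as well. Its level was 34.3, 40.1 and 33.7 RPKM in full, 13.2, 15.2 and 12.7 in depleted and 41.9, 33.9 and 40.4 in repleted libraries. No depleted library reached the other groups. The mean fell from 36 ± 3.51 in full to 13.7 ± 1.35 in depleted medium, 2.63-fold (log2 -1.33, SE 0.10, and limma adjusted p = 2.84e-06). Against 38.7 ± 4.22 in repleted medium it was 2.83-fold lower (log2 -1.43, SE 0.10, and limma adjusted p = 1.75e-06). A log2 difference this low or lower was found in 3.15% of genes tested against full and in 2.6% against repleted medium. The annotation places exons of RNF10 on the opposite strand over exons of COQ5. RNF10 had 89.5 ± 2.95 RPKM in full and 74.2 ± 2.65 in depleted medium.

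Genes of the isoprenoid tail fell less or did not pass the test. PDSS1 (ENSG00000148459), a subunit of the tail synthase, had 13, 14.3 and 12.8 RPKM in full, 11, 10.1 and 9.72 in depleted and 13.8, 13.9 and 16.7 in repleted libraries. The depleted libraries lay below all others (log2 -0.35, SE 0.08, and limma adjusted p = 0.00564 against full and log2 -0.48, SE 0.08, adjusted p = 0.000838 against repleted medium). The partner subunit PDSS2 had 8.83, 8.29 and 7.49 RPKM in full, 7.79, 7.42 and 7.57 in depleted and 7.29, 7.27 and 8.22 in repleted libraries. Its groups overlapped in every comparison (log2 -0.10, SE 0.08, and limma adjusted p = 0.309 against full medium). COQ2 (ENSG00000173085), the transferase that joins tail and ring, had 14.2, 14.7 and 13.2 RPKM in full, 11.9, 10.2 and 11.2 in depleted and 13.8, 15 and 12.5 in repleted libraries. Its depleted libraries lay below all others. It fell by 0.32 against full (SE 0.08, and limma adjusted p = 0.00802) and by 0.29 against repleted medium on the log2 scale (SE 0.08, adjusted p = 0.0126).

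The transcripts of both hydroxylases rose. COQ6 (ENSG00000119723), a flavin-dependent hydroxylase, had 23.6, 24.6 and 23.5 RPKM in full, 29.2, 34.1 and 32.7 in depleted and 22.3, 23.1 and 25.1 in repleted libraries. All 3 depleted libraries were above the other 6 (log2 0.40, SE 0.07, and limma adjusted p = 0.000521 against full and log2 0.43, SE 0.07, adjusted p = 0.000357 against repleted medium). Exons of FAM161B lie opposite exons of COQ6, and FAM161B rose from 1.98 ± 0.142 in full to 8.19 ± 0.83 RPKM in depleted medium (log2 1.62, SE 0.11, and limma adjusted p = 1.24e-06). The part of FAM161B in the rise of COQ6 was not tested. Exons of ENTPD5 also lie opposite exons of COQ6, and ENTPD5 had 5.59 ± 0.321 RPKM in full and 5.39 ± 0.672 in depleted medium (limma adjusted p = 0.676). COQ7 (ENSG00000167186), a hydroxylase with a di-iron centre, had 24.4, 23.2 and 22.2 RPKM in full, 28.9, 32.3 and 32.6 in depleted and 23.9, 21.1 and 24 in repleted libraries. Its rise was close in size to that of COQ6, 1.34-fold against full (log2 0.41, SE 0.07, and limma adjusted p = 0.000619) and 1.36-fold against repleted medium (log2 0.42, SE 0.07, adjusted p = 0.000478). Whether the counting used strand is not given in the sources used here, so reads of these genes and of genes on the opposite strand (also TRUB2 for COQ4, CIAPIN1 for COQ9, ABI1 for PDSS1 and a weakly expressed antisense RNA for COQ7) cannot be told apart. On the strand of COQ9 a processed transcript, AC009052.1, shares exon sequence with it and is listed at 0 in every full and depleted library. No annotated gene overlaps COQ3, COQ2 or COQ10B.

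The proteins that organise the assembly or bind its lipids were divided. COQ4 (ENSG00000167113), a subunit with a conserved zinc-binding motif, had 29.1, 30.6 and 29.1 RPKM in full, 36.4, 36.7 and 35.4 in depleted and 32, 33.7 and 28.9 in repleted libraries. The depleted libraries were the highest of the 9 (log2 0.28, SE 0.06, and limma adjusted p = 0.00184 against full and log2 0.20, SE 0.06, adjusted p = 0.0138 against repleted medium). COQ10B (ENSG00000115520), which binds coenzyme Q, had 8.08, 10 and 9.54 RPKM in full, 13.1, 11.9 and 14.7 in depleted and 8.89, 7.69 and 8.37 in repleted libraries. It had the largest rise of the 9 genes tested, 1.44-fold against full (log2 0.48, SE 0.10, and limma adjusted p = 0.00221) and 1.59-fold against repleted medium (log2 0.61, SE 0.10, adjusted p = 0.000507). COQ9 (ENSG00000088682), a lipid-binding partner of COQ7, had 29, 32 and 29 RPKM in full, 24.4, 26 and 27.4 in depleted and 30.9, 35 and 32.1 in repleted libraries. It fell by 0.20 against full (SE 0.06, and limma adjusted p = 0.0215) and by 0.32 against repleted medium on the log2 scale (SE 0.06, adjusted p = 0.00186). The call against full medium was lost after median centring of the libraries (adjusted p = 0.067), without full replicate 2 (0.0821) and without depleted replicate 1 (0.0781), within a range of 0.0134 to 0.0821 over 18 alternatives.

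**Figure D1:**
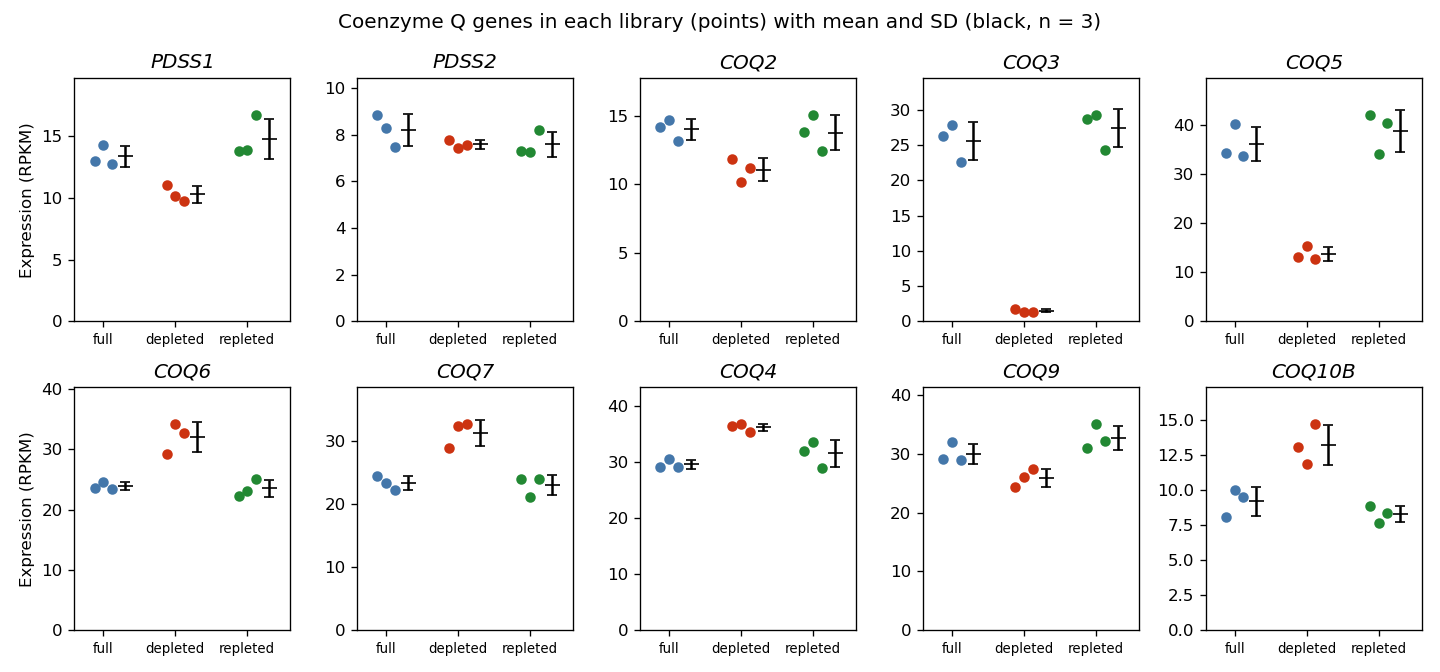
Expression of the 10 coenzyme Q genes in RPKM (vertical axis, from 0) in the 3 full, 3 depleted and 3 repleted libraries (points), with the mean and SD of each group (black bars, n = 3). The depleted libraries of COQ3 lie between 1.36 and 1.72 RPKM, far below the other 6, and COQ5 shows a smaller gap, while COQ6, COQ7, COQ4 and COQ10B are highest in depleted medium.

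Apart from COQ3, 4 of the 9 genes rose (COQ4, COQ6, COQ7 and COQ10B) and 4 fell (COQ5, PDSS1, COQ2 and COQ9) in depleted against full medium. Over all genes tested 60.9% were called in this comparison, 29.8% higher and 31.2% lower, so that a call alone is common. The 9 genes were chosen with earlier results of these data known, so their counts describe this list only. The median log2 difference of the 9 genes was -0.10, beside 0.00 over all genes tested, and the range ran from -1.33 to 0.48. Against repleted medium COQ4, COQ6, COQ7 and COQ10B rose and COQ5, PDSS1, COQ2 and COQ9 fell, where 60.7% of all genes were called. That comparison uses the same depleted libraries and is not a separate test of them. The depleted and full libraries did not overlap for 8 of these 9 genes, all but PDSS2, beside 67.6% of all genes tested, and the depleted and repleted libraries did not overlap for 8 of 9 either, beside 65.2%.

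**Figure D2:**
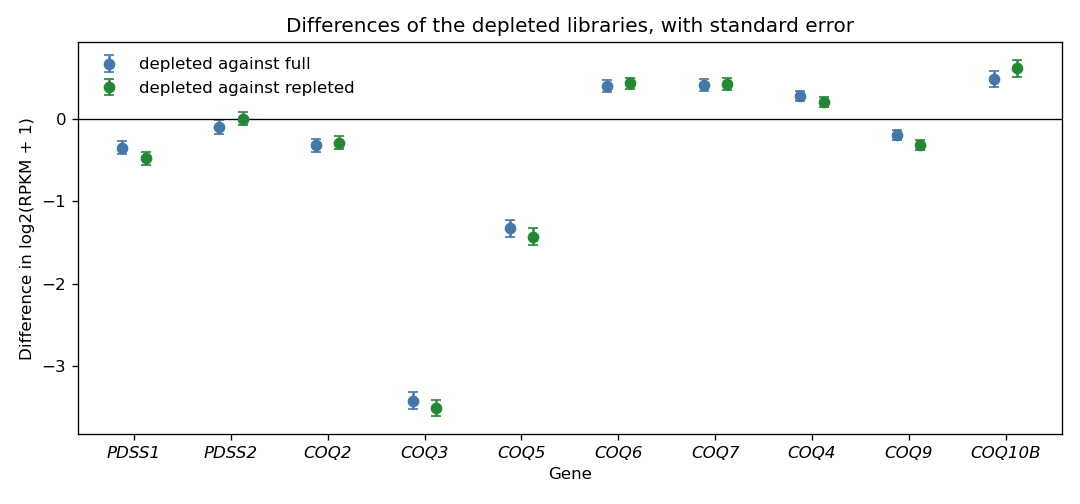
Difference of the depleted libraries from the full (blue) and the repleted libraries (green) on the log2(RPKM + 1) scale for each of the 10 genes, with the standard error of the limma fit as bars. COQ3 lies at -3.42 and -3.51 and COQ5 at -1.33 and -1.43, and the other 8 genes lie between -0.48 and 0.61.

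Adding zinc back left no member called against full medium. In repleted against full medium 0 of the 9 tested genes passed limma's test, 0 had an unadjusted p below 0.05, and 0.0317% of all genes were called. Log2 differences ran from -0.13 for COQ10B to 0.13 for PDSS1 (limma adjusted p = 0.795 and 0.749). The repleted and full libraries of every member overlapped, and only 12.4% of all genes tested did not overlap in this comparison. COQ3 in repleted medium was at 107% of its full-medium mean and COQ5 at 107.5%. The lowest share was that of COQ10B, 90.3%, and the highest that of PDSS1, 110.7%.

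The order of levels within the pathway differed between media. In full medium COQ5 was the highest, at 36 ± 3.51 RPKM, and no library of another member reached its lowest value. COQ9 (29.98 ± 1.73) and COQ4 (29.6 ± 0.872) followed and overlapped each other. COQ3, COQ6 (23.9 ± 0.619) and COQ7 (23.3 ± 1.13) came next, each overlapping its neighbour in the order, then COQ2 (14 ± 0.75) with PDSS1 (13.3 ± 0.815), and last COQ10B (9.21 ± 1.01) with PDSS2 (8.2 ± 0.674). In depleted medium COQ4 led at 36.2 ± 0.684 RPKM, followed by COQ6 (32 ± 2.52) and COQ7 (31.2 ± 2.06), which overlapped. COQ5 (13.7 ± 1.35) overlapped COQ10B (13.2 ± 1.41), and COQ3 stood last, below every library of PDSS2 (7.59 ± 0.186). The repleted libraries had the order of full medium, except that PDSS1 (14.8 ± 1.64) and COQ2 (13.8 ± 1.29), which overlapped, changed places. Summed over the 10 genes, the level was 213.2 ± 11.5 RPKM in full, 182.8 ± 4.49 in depleted and 221.3 ± 1.91 in repleted medium. Without COQ3 the sums were 187.6 ± 9.07, 181.3 ± 4.69 and 193.9 ± 2.87, and the depleted libraries overlapped the full libraries but not the repleted libraries (175.8 to 184 RPKM in depleted, 190.7 to 196.3 in repleted).

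Some other factors of coenzyme Q synthesis rose. Of 13 reported, 12 were tested, 4 rose and 0 fell in depleted against full medium (median log2 0.11, beside 0.00 over all genes). Calls made up 33.3% of the 12, beside 60.9% over all genes tested, where 29.8% rose and 31.2% fell. The ferredoxin FDX2 rose from 23.7 ± 1.39 to 35.2 ± 1.54 RPKM (log2 0.55, SE 0.05, and limma adjusted p = 1.56e-05) and its reductase FDXR from 19.9 ± 0.465 to 29.7 ± 0.523 (log2 0.55, SE 0.09, adjusted p = 0.000402). Both carry electrons in the mitochondrial matrix. FDX1, the related ferredoxin, rose by less (log2 0.22), as did the membrane protease PARL (log2 0.33). The atypical kinases COQ8A (30.2 ± 0.644 RPKM in depleted and 31 ± 0.179 in full medium) and COQ8B (26.7 ± 1.65 and 22.8 ± 2.14) did not pass (limma adjusted p = 0.547 and 0.0588). COQ10A, the paralogue of COQ10B, had 9.59 ± 1.19 against 10.7 ± 1.03 RPKM (log2 -0.15, limma adjusted p = 0.223). PPTC7, OMA1, RTN4IP1, STARD7 and UQCC1 had log2 values of 0.14, -0.10, 0.08, -0.11 and -0.06 and did not pass, and HPDL stayed below the filter, with at most 0.19 RPKM in a library. Against repleted medium 5 of the 12 rose and 0 fell, PPTC7 being the added call (log2 0.16, limma adjusted p = 0.0487). This was 41.7% called, beside 60.7% over all genes tested, where 29.5% rose.

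Enzymes that pass electrons to coenzyme Q were mixed. Of 12 tested, 4 rose, 2 fell and 6 did not pass against full medium (median log2 0.05). The share called was 50%, beside 60.9% over all genes tested. ETFDH, which delivers electrons from fatty acid and amino acid oxidation, had 25.4, 24.8 and 24.5 RPKM in full, 46.5, 44.7 and 40.4 in depleted and 21.5, 19 and 23.1 in repleted libraries, with no overlap of the depleted libraries and the rest (log2 0.79, SE 0.07, and limma adjusted p = 1.36e-05 against full medium). GPD2, the mitochondrial glycerol phosphate dehydrogenase, rose from 19.4 ± 0.672 to 28.4 ± 1.4 RPKM (log2 0.53), SDHB, the iron-sulfur subunit of complex II, from 132.5 ± 3.02 to 172.5 ± 11.5 (log2 0.38) and AIFM2, a coenzyme Q reductase outside mitochondria, from 5.96 ± 0.488 to 7.25 ± 0.575 (log2 0.25). The quinone reductase NQO1 fell from 17.9 ± 0.784 to 7.69 ± 0.637 RPKM (log2 -1.13, SE 0.07, and limma adjusted p = 7.21e-07) and stood at 12.1 ± 0.408 in repleted medium, between the other groups and overlapping neither. In repleted against full medium NQO1 did not pass (log2 -0.53, SE 0.07, and limma adjusted p = 0.0596), and 12.4% of all genes tested did not overlap there. The choline dehydrogenase CHDH fell from 6.42 ± 0.052 to 2.76 ± 0.144 RPKM (log2 -0.98). DHODH, SQOR, PRODH, SDHA, SDHC and SDHD had log2 values of -0.07, -0.16, -0.54, 0.09, 0.04 and 0.07 and did not pass. SDHC and SDHD were called higher against repleted medium (log2 0.12 and 0.15), where 6 of the 12 rose and 2 fell. This was 66.7% called, beside 60.7% over all genes tested.

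Genes around the methyl donor, and genes of mevalonate and isoprenoid metabolism in general, showed calls in both directions. Of the 4 genes for S-adenosylmethionine, the methyl donor of COQ3 and COQ5, the mitochondrial carrier SLC25A26 rose from 14.9 ± 0.376 to 18.9 ± 0.511 RPKM (log2 0.33, SE 0.08, and limma adjusted p = 0.00415). AHCY, which clears the spent donor, fell by 0.17 on the log2 scale (SE 0.02, and limma adjusted p = 0.000237). The synthetase subunits MAT2A and MAT2B had log2 values of -0.11 and 0.17 against full medium and did not pass. This left 50% of the 4 called, beside 60.9% over all genes tested. Against repleted medium MAT2A fell as well (log2 -0.19, SE 0.06, and limma adjusted p = 0.0251), so that 1 of the 4 rose and 2 fell. The share called there was 75%, beside 60.7% over all genes tested. Of 15 genes of the mevalonate and isoprenoid branch 6 rose and 5 fell against full medium (73.3% called, median log2 0.04). PMVK, the phosphomevalonate kinase, fell from 24.3 ± 0.217 to 12.4 ± 0.932 RPKM (log2 -0.91), the farnesyltransferase subunit FNTB from 13.1 ± 0.766 to 6.51 ± 0.497 (log2 -0.91) and NUS1 from 38.2 ± 1.05 to 26 ± 0.384 (log2 -0.54), while the isomerase IDI1 rose from 116.1 ± 3.56 to 164.6 ± 2.84 (log2 0.50). A further 21 methyltransferases were listed as mitochondrial users of the same donor, although METTL5 among them is not one. Of these, 3 rose and 6 fell against full medium (42.9% called, median log2 0.01). NSUN4, a methyltransferase of mitochondrial ribosomal RNA, fell from 13.1 ± 0.616 to 6.01 ± 0.955 RPKM (log2 -1.02, SE 0.10, and limma adjusted p = 1.36e-05) and FAM173A from 27.5 ± 0.762 to 17.1 ± 2.4 (log2 -0.67). NSUN3, which acts on mitochondrial tRNA, rose from 8.16 ± 0.473 to 14.9 ± 1.01 (log2 0.79), and METTL5, which acts on ribosomal RNA of the cytosol, fell by 0.28 on the log2 scale. The lowest log2 value among these 21 was -1.02, beside -1.33 for COQ5 and -3.42 for COQ3.

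**Figure D3:**
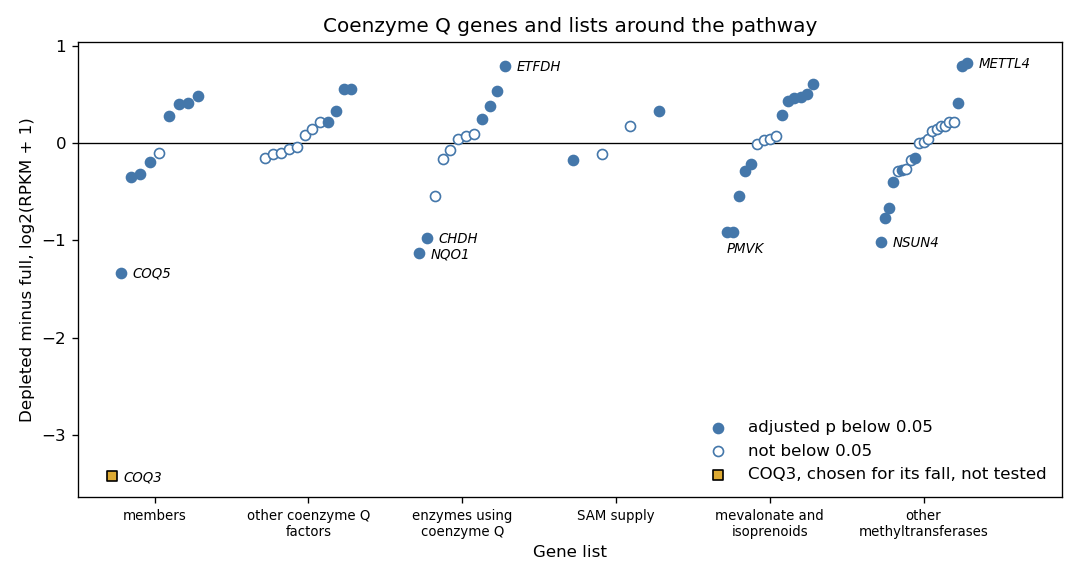
Difference of depleted from full medium on the log2(RPKM + 1) scale for each tested gene of 6 lists (horizontal axis), as filled points where limma's adjusted p was below 0.05 and open points where it was not. COQ3 (square, not tested) lies at -3.42, and the genes of the other 5 lists lie between -1.13 and 0.82.

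Likeness to the profile of COQ3 was measured over all genes. By Euclidean distance of log2(RPKM + 1), centred on each gene's own mean over the 9 libraries, the 5 nearest of all genes tested were CDKN2AIPNL (distance 0.428), AGK (0.561), MFSD3 (0.611), EEFSEC (0.63) and RASL10B (0.664). AGK is a lipid kinase of the inner mitochondrial membrane and EEFSEC the elongation factor for selenocysteine. Their depleted means were between 6.54% and 9.15% of full medium, beside 5.82% for COQ3, and their repleted means between 87.7% and 104%. EEFSEC at 87.7% was the exception to full overlap between repleted and full libraries. These genes were picked for their values, so no test is given.

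The genes beside COQ3 on the chromosome were mixed against full medium. COQ3 was chosen for its fall, so a gap between it and its neighbours follows from that choice. Of the 3 nearest protein-coding genes on each side, CCNC, the cyclin of the Mediator kinase module, fell from 87.6 ± 5.5 to 70.5 ± 3.47 RPKM (log2 -0.31, SE 0.05, and limma adjusted p = 0.000693). POU3F2, a neural transcription factor, fell from 10.3 ± 0.43 to 5.43 ± 0.319 RPKM (log2 -0.82, SE 0.06, adjusted p = 4.26e-06), and PNISR rose from 41.3 ± 2.24 to 54.3 ± 5.03 (log2 0.39, SE 0.13, adjusted p = 0.0243). FBXL4, FAXC and USP45 had log2 values of 0.07, 0.12 and 0.27 and did not pass. The share of the 6 called was 50% against full and 33.3% against repleted medium, beside 60.9% and 60.7% over all genes tested. Against repleted medium CCNC and POU3F2 fell (log2 -0.33 and -0.90), PNISR was not called (log2 0.14, SE 0.13, and limma adjusted p = 0.368) and 0 of the 6 rose. Depleted means of the 6 neighbours were between 52.6% and 131.7% of full medium.

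**Figure D4:**
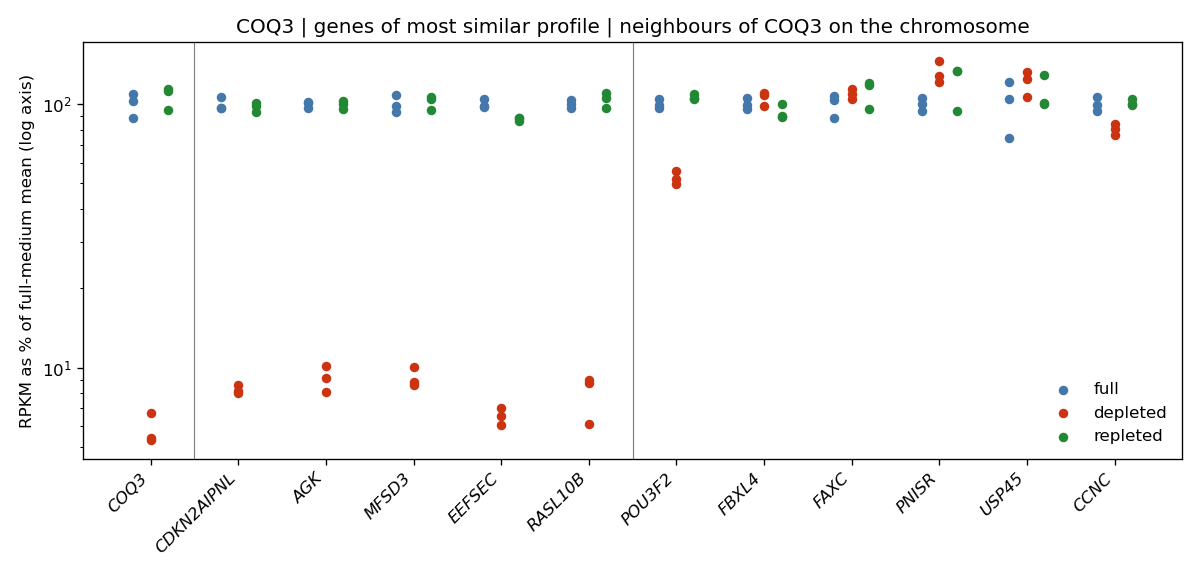
RPKM of each library as a percent of the gene's full-medium mean (log axis) for COQ3, the 5 genes of most similar profile and the 6 nearest protein-coding neighbours, coloured by medium. The depleted points of COQ3 and the 5 similar genes lie far below those of the neighbours, whose depleted means run from 52.6% to 131.7%. COQ3 was chosen for its fall and the 5 genes for their likeness to it, so this gap follows from the choice.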

How the data were processed

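Polyadenylated RNA was sequenced from single ends, per the labels' protocols, in 9 libraries, 3 per medium, and 0 library columns were of unknown sample. The authors deposited log2 of RPKM plus 1 for each gene, per the file headers. The submitters' processing notes name bedtools 2.25.0.3, BWA 0.7.12-r1039, RSEM 1.2.6 and Bowtie 1.0.1, and the builds hg19 and GRCh37, without saying what each did. Undoing the log gave multiples of 0.01 RPKM within 1.4e-05, so values are rounded. The table holds no counts, and depth was estimated from the value of 1 read in genes whose effective length was 100 to 500 nucleotides, where 56.4% to 62.2% of low values were whole reads within 0.1 read, too few for a count test.

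The log2 values (pseudocount 1) were fitted with limma 3.58.1 in R 4.3.3, with a variance trend and 1 mean per group over 9 libraries. The fit was also run on simulated data with 200 genes shifted, far fewer than the 9611 called in depleted against full medium. No result here rests on that run. A gene rose or fell where its adjusted p was below 0.05. The members and lists were chosen with earlier results of these data known. The genes named were all members, every tested and reported gene of the lists of coenzyme Q factors, coenzyme Q users and methyl donor supply, up to 4 of the other lists, those lowest in p between depleted and full medium, 3 neighbours of COQ3 on each side and the 5 genes nearest in profile, together with genes whose exons overlap a member. Older symbols were matched, and PECAM1 had no row. A further gene of the list of coenzyme Q factors is not reported here, for a reason unrelated to its values, and is left out of its counts. Neighbours and windows come from RefSeq GRCh38.p14 and overlaps from GENCODE on GRCh38, a later build than the values, so no positions of the measured genes are given. Alternatives were median centring, quantile normalization, a pseudocount of 0.1, no filter, a mean of at least 1 RPKM, only the 6 libraries compared, no variance trend, the replicate number as a block, an adjusted p of 0.01 and each library left out. Python 3.11.15 and matplotlib 3.10.9 made the figures.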

Additional observations from a re-analysis of the deposited data

How the results depend on the processing

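The counts of the 9 tested members were close under 18 alternatives. In depleted against full medium 7 to 8 were called (4 rose and 3 to 4 fell), in depleted against repleted medium 6 to 8 (3 to 4 rose and 3 to 4 fell), and in repleted against full medium 0. Over all genes the share called in depleted against full medium ran from 26.2% (no filter, 36433 genes) to 62.6% (mean of at least 1 RPKM). Against repleted medium the same settings gave 26% and 62.4%. At an adjusted p of 0.01 the shares were 48.2% and 47.8%. At an adjusted p of 0.01, COQ9 (0.0215) was lost against full medium and COQ2 (0.0126) and COQ4 (0.0138) against repleted medium. The pseudocount of 0.1 moved COQ3 to a log2 difference of -4.02 against full and -4.11 against repleted medium, and over the 9 fits that leave out a library it lay between -3.5 and -3.35 and between -3.59 and -3.46. Small differences that passed in no setting changed sign when a library was left out, from -0.0251 to 0.0534 for PDSS2 in depleted against repleted medium, and in repleted against full medium from -0.0871 to 0.039 for COQ2, from -0.0709 to 0.0121 for COQ6 and from -0.0497 to 0.041 for COQ7. With the replicate number as a block, 8 members were called in each depleted comparison (4 rose and 4 fell) and 0 in repleted against full medium, and the block changed no call of a member. Correlations of the deviations from the group means ran from -0.0144 to 0.0726 between libraries of the same number and from -0.0609 to 0.0416 between other numbers, and 0 of 9 libraries correlated best with its own number in both other groups, so the numbers were not taken as pairs. Over all genes, 5 were called in repleted against full medium, and between 1 and 9 under the alternatives. Low values of COQ3 in depleted medium rest on few reads, which limits the precision of its fold.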
